A study of Mus musculus with 64 samples.

Results

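The comparison concerned 30 PiggyBac (PB) tumours, which were divided by how far their sequencing reads were concentrated on a few transposon insertions. For each tumour, the percent of reads in its 10 most covered positions was taken over the autosomes without chromosome 14, the donor chromosome. The clonal tumours were chosen by this share alone, at 25% or more, and the others were called polyclonal. By this rule 12 tumours were clonal and 18 were polyclonal, out of 64 samples in the series. The names describe the read share only, and whether a tumour grew from 1 cell was not measured.

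PB is a cut-and-paste transposase that moves a transposon to TTAA motifs elsewhere in the genome. An insertion present in the founder cell of a clone is passed on to its descendants unless the transposon moves again. It can then be sequenced more often than insertions of cells that did not expand. Insertions in tumour suppressor genes or oncogenes that favour growth can expand in this way, together with bystander insertions of the same cell. Read coverage alone does not tell these apart.

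All groups used here had the genotype IMPB in the labels, and the methods describe mice with the PB transposase knocked in at Rosa26 and an ITP transposon array, on a mixed C57BL/6, 129Sv and FVB background. The methods also list Blm m3 mice, and whether the PB mice carried this allele is not given in the sources used here. The transposase was expressed constitutively, so insertions can also arise in non-tumour tissue. The 30 tumours were diffuse large B cell lymphomas of PB mice and included spleens, nodes and masses. Whether each came from a different mouse was not checked here. The 12 PB tails, used as the background, carried the same transposon system. Ages were not given in the sources used here, and DNA insertion data hold no expression by which the tissue could be checked. Each value came from genomic DNA by splinkerette PCR of transposon-genome junctions and paired-end sequencing, and the deposited unit is the read count of a position.

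Read totals on the chromosomes used lay between 100872 and 316122 in the clonal tumours and between 60907 and 5827246 in the polyclonal tumours. The highest total belonged to IMPB1_3A, a polyclonal spleen, and it stood far above the other libraries. Shares of no more than 0.826% of the positions with at least 10 reads were common to any of the 435 pairs of PB tumours, and the pair with this share had 2 of them. 

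Sequences around recurrent or highly covered sites are shown for Fas, Gna13 and Rel, because insertions in these genes are described below by their exact place and strand. Each run holds 30 bases of the GRCm38 (mm10) genome, written 5′ to 3′ on the strand of the gene, with the TTAA target motif in capitals.
Fas intron 7, chr19:34319445-34319474 (+): attagcactttctTTAAaacaaattcaagt
Fas intron 8, chr19:34321830-34321859 (+): tgtgtaaatttttTTAAatgagatataatg
Fas intron 8, chr19:34322236-34322265 (+): catctgtatttttTTAAagttatttttaag
Fas intron 8, chr19:34322604-34322633 (+): caccttactgcttTTAAtattctttctttg
Fas intron 8, chr19:34326228-34326257 (+): cttctagctgtttTTAAaggagttatttat
Gna13 intron 2, chr11:109378345-109378374 (+): gtgcactttttacTTAAgccagagtcttag
Gna13 intron 2, chr11:109381517-109381546 (+): tgagggctcatttTTAAgagactatataaa
Rel exon 10, chr11:23739220-23739249 (-): atttttgattataTTAAaacaatgcaacca
Rel exon 10, chr11:23740186-23740215 (-): cttttccatatgtTTAAggttttttttttt
TTAA is the target motif of the transposase. The mean GC content of the 40 bases beside it was 38.9% ± 0.333 (SD, n = 12) over all insertions of the clonal tumours and 38.8% ± 0.169 (SD, n = 18) over those of the polyclonal tumours.

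Reads were concentrated to very different degrees among the clonal tumours. The top 10 share was 88.9% in IMPB11_1A, 60.9% in IMPB11_1B, 51.9% in IMPB1_2A and 42.5% in IMPB_6_3B. It was 32.3% in both IMPB_5_2D and IMPB12_3B, 31.9% in IMPB12_1B, 31.1% in IMPB_9_3B and 30.7% in IMPB3_5D. It was 29% in IMPB4_1D, 28.9% in IMPB1_4E and 27% in IMPB_4_6C. The first 4 tumours therefore stood apart, and the other 8 lay within a few percentage points of each other and of the threshold. Just inside it was IMPB_4_6C at 27%, and just outside were IMPB1_5B at 23.6% and IMPB10_4A at 22.8%. The polyclonal tumours reached from 9.45% to 23.6% with a median of 14.1%, and the tails from 1.12% to 10.8% with a median of 2.55%. The highest tail, IMPB_5_5E, was above the 4 lowest polyclonal tumours. Wilson 95% intervals of these shares were at most 0.602 percentage points wide. They cover counting error only, and whether PCR copies were removed from the counts is not given in the sources used here. These shares chose the groups and are given without a test.

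**Figure D1:**
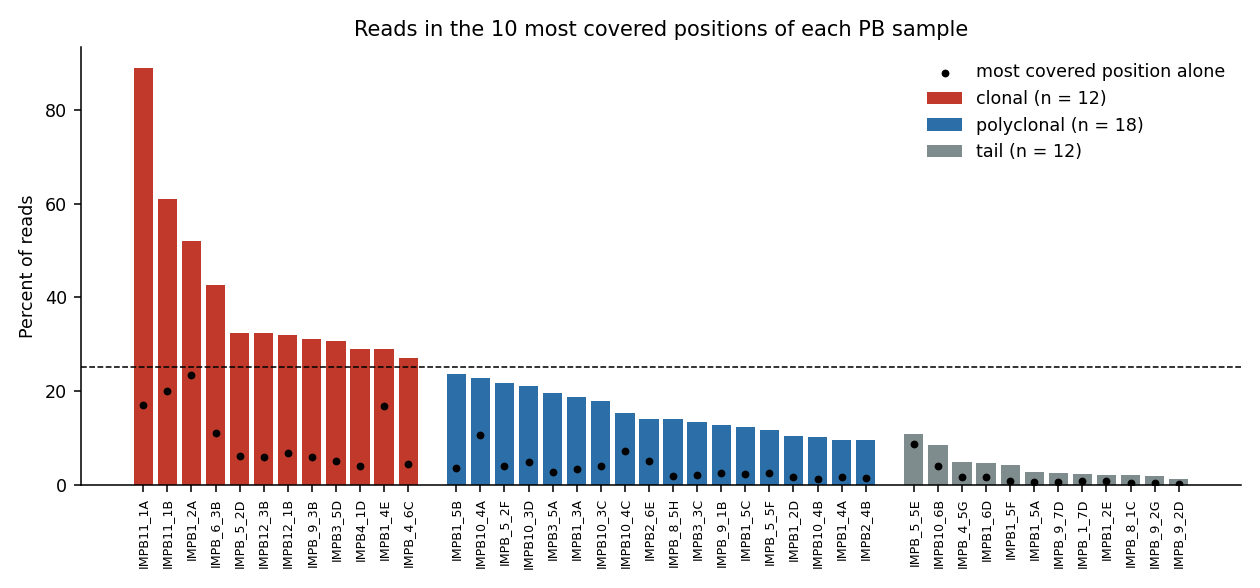
Percent of reads in the 10 most covered positions (bars) and in the most covered position alone (black points) of each PB sample, by group in falling order, with the 25% threshold dashed. The clonal tumours run from 88.9% down to 27%, and the tails run from 10.8% to 1.12%.

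The shape of the distribution differed among tumours, also between some with a like top 10 share, such as IMPB1_4E and IMPB4_1D. In IMPB11_1A, 5 positions held 50% of the reads and 12 positions held at least 1% each, and the tumour had 764 positions in all, the fewest of any clonal tumour. In IMPB1_2A, 6 positions held 50% of the reads. IMPB1_4E leaned on 1 position, with 16.7% of its reads there, and 65 positions were needed to reach 50%. IMPB4_1D was flatter, with a ratio of 2.01 between the first and the tenth position and 31 positions of at least 1%. The polyclonal tumour next to the threshold, IMPB1_5B, reached 50% of its reads with 29 positions, which is within the range of the clonal tumours (5 to 65). IMPB10_4A, the polyclonal tumour below it, needed 367, although its first position alone held 10.7% of its reads. IMPB1_3A had 42 positions of at least 1%, more than any clonal tumour.

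**Figure D2:**
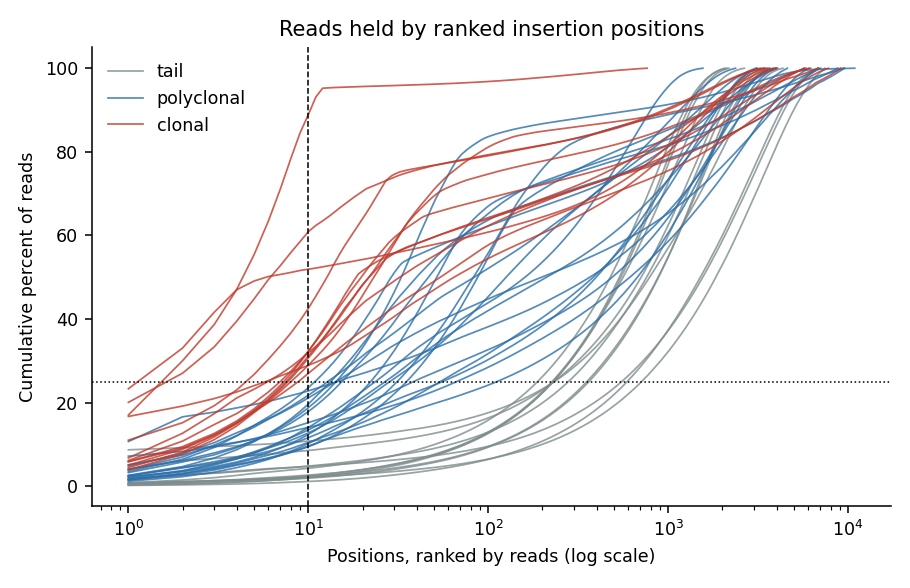
Cumulative percent of reads (vertical axis) against positions ranked by reads on a log scale (horizontal axis), 1 line per PB sample, with rank 10 dashed and 25% dotted. The clonal line that is steepest is IMPB11_1A, at 88.9% by rank 10, and several polyclonal lines cross 50% before rank 100 while the tail lines rise later.

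The number of positions did not order the groups. The clonal tumours had between 764 and 9107 positions with a median of 4826, and the polyclonal tumours between 1559 and 10886 with a median of 4325. The clonal tumours had insertions in 503 to 4009 genes (median 2462) and the polyclonal tumours in 959 to 4620 (median 2265). These ranges overlap widely. Both quantities are tied to the share by construction and were not tested.

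Fas held highly covered insertions in both groups and in no tail. It encodes a death receptor of lymphocytes, and its loss protects B cells from apoptosis. The gene spans chr19:34290647-34327775 on the plus strand (GRCm38) and has 9 exons. A top 10 insertion lay in Fas in 6 of 12 clonal tumours, in 7 of 18 polyclonal tumours and in 0 of 12 tails. These insertions held 13% of the reads of IMPB11_1A, 3.63% of IMPB_4_6C, 3.28% of IMPB_9_3B, 2.98% of IMPB12_3B, 2.95% of IMPB3_5D and 2.11% of IMPB12_1B. In the polyclonal tumours the most covered one held 7.17% of the reads of IMPB10_4C and 5.91% of IMPB10_4A, and between 0.927% and 1.63% in the other 5. A further 3 clonal tumours had a Fas insertion of at least 1% outside their top 10, namely IMPB_6_3B at 1.53%, IMPB4_1D at 1.42% and IMPB_5_2D at 1.30%. With this limit in place of the top 10, 9 clonal and 9 polyclonal tumours had a Fas insertion. Clonal tumours had more positions of at least 1% (median 18, against 6.5 in polyclonal tumours). Any Fas insertion at all, whatever its reads, was present in 12 of 12 clonal tumours, 15 of 18 polyclonal tumours and 2 of 12 tails. Counted once per position, clonal tumours had 1.58 ± 0.669 Fas insertions (SD, n = 12) and polyclonal tumours 2.72 ± 2.61 (SD, n = 18), and edgeR did not call this difference (log2 fold change -0.63, adjusted p = 0.95).

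Insertions in Fas were ordered by place and strand in both groups. Intron 8, the last intron, lies before the exon that encodes most of the death domain. In the clonal tumours 10 of 10 insertions in intron 8 were on the strand of the gene (sense), and in the polyclonal tumours 26 of 27 were. These counts include the same site in different tumours. They also include insertions of few reads, down to 0.0011% of the reads of a clonal and 0.00066% of a polyclonal tumour. In intron 7 the order was turned, with 0 of 4 sense in clonal and 0 of 7 in polyclonal tumours. Over all genes, 48.4% ± 1.09 (SD, n = 12) of insertions in gene bodies were sense in clonal tumours. Of the Fas insertions in the top 10 of clonal tumours, 5 of 6 were sense in intron 8, and the exception was the antisense insertion in intron 7 of IMPB11_1A. This orientation did not separate the groups.

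Exact positions in Fas recurred between tumours. The site at chr19:34321830-34321859 held insertions of 4 polyclonal tumours, all sense, of which IMPB10_4A and IMPB1_5C had it in their top 10. The site at chr19:34322604-34322633 was in the top 10 of clonal IMPB12_3B with 3305 reads and of polyclonal IMPB10_4C with 7149 reads, and IMPB1_5B had it with 1678 reads. Clonal IMPB12_1B and polyclonal IMPB_9_1B also had a top 10 insertion at the same TTAA of intron 8, with 3034 and 2551 reads. The site of IMPB11_1A in intron 7 had 17907 reads there, 164 in IMPB10_3C and 2 in IMPB1_2A.

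Gna13 held the most covered insertion of 3 clonal tumours, and also that of polyclonal IMPB10_4A and IMPB_8_5H. It encodes the G protein subunit through which receptors restrain germinal centre B cells in their niche, and it spans chr11:109362794-109401369 on the plus strand with 4 exons. In the 3 clonal tumours the insertion held 11.0% of the reads of IMPB_6_3B, 6.15% of IMPB_5_2D and 5.90% of IMPB12_3B. A lower rank was held in IMPB4_1D at 3.76% and in IMPB3_5D at 3.29%, so that 5 of 12 clonal tumours had a top 10 insertion there. In the polyclonal tumours it was 6 of 18, with 10.7% of the reads of IMPB10_4A, 2.77% of IMPB1_5B, 2.13% of IMPB10_3C, 1.82% of IMPB_8_5H, 1.13% of IMPB1_5C and 1.08% of IMPB10_4B, and in the tails 0 of 12. Shares above 10% thus occurred on both sides of the threshold. Most insertions spread over introns 1 and 2, and they lay on both strands, with 17 of 24 sense in clonal and 25 of 43 in polyclonal tumours. The insertions of the 5 clonal tumours were at 5 different sites. Any Gna13 insertion was found in 9 of 12 clonal and 15 of 18 polyclonal tumours (edgeR log2 fold change -0.13, adjusted p = 0.98).

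At least 1 of Fas and Gna13 was in the top 10 of 9 of 12 clonal and 11 of 18 polyclonal tumours, and both were in 2 clonal tumours (IMPB12_3B and IMPB3_5D) and in 2 polyclonal tumours (IMPB10_4A and IMPB1_5C). The clonal tumours without either were IMPB11_1B, IMPB1_2A and IMPB1_4E.

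**Figure D3:**
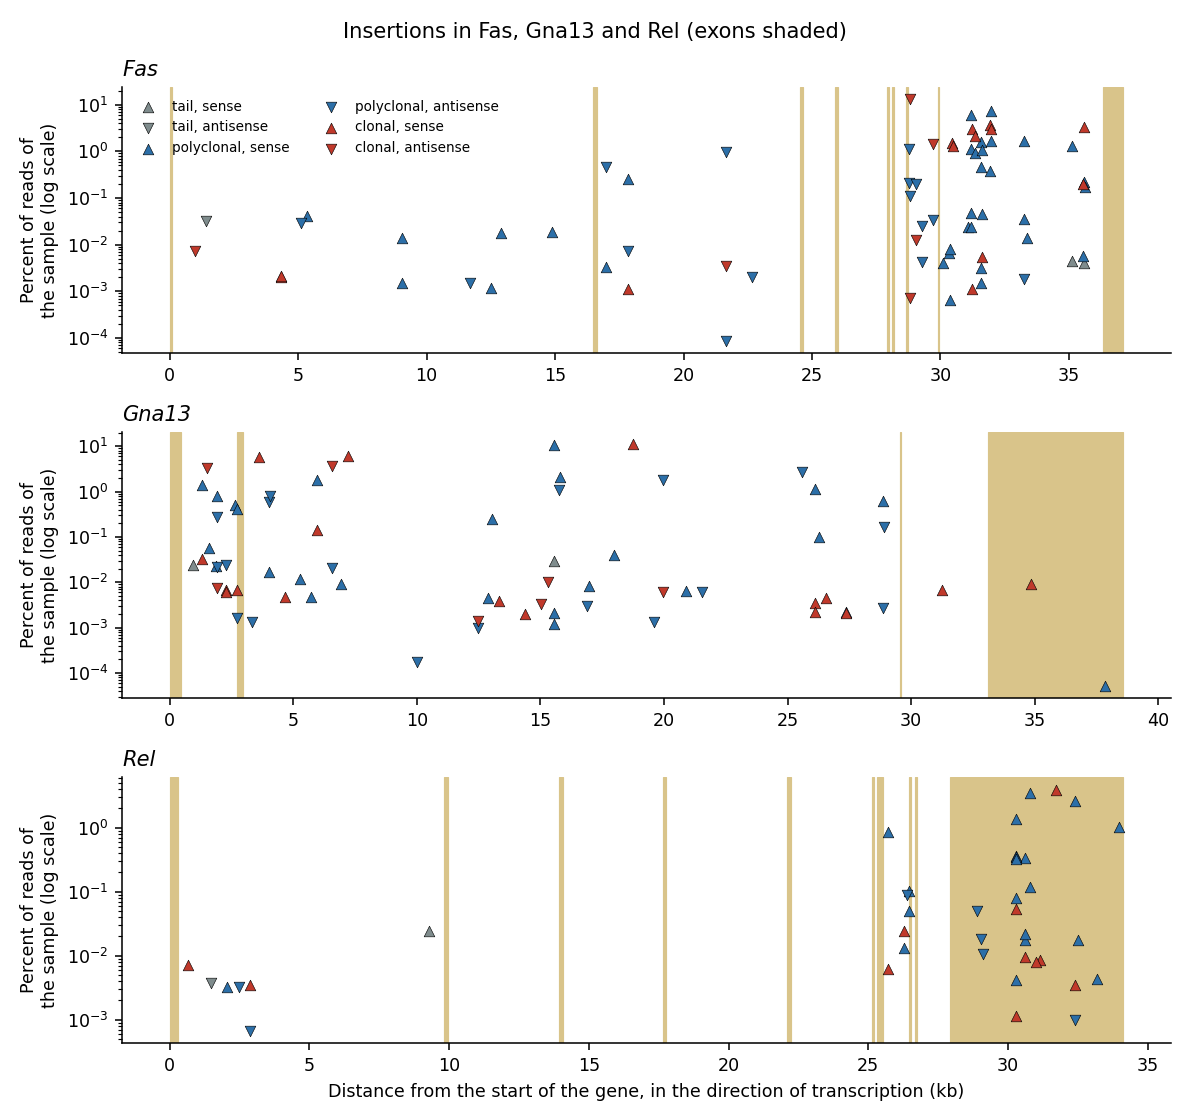
Percent of a sample's reads (log scale) held by each insertion in Fas, Gna13 and Rel, against the distance in kb from the start of the gene, with exons shaded, groups in colour and triangles pointing up for sense and down for antisense. In Fas, 10 of 10 clonal and 26 of 27 polyclonal insertions in intron 8 point up and all 11 in intron 7 point down.

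**Figure D4:**
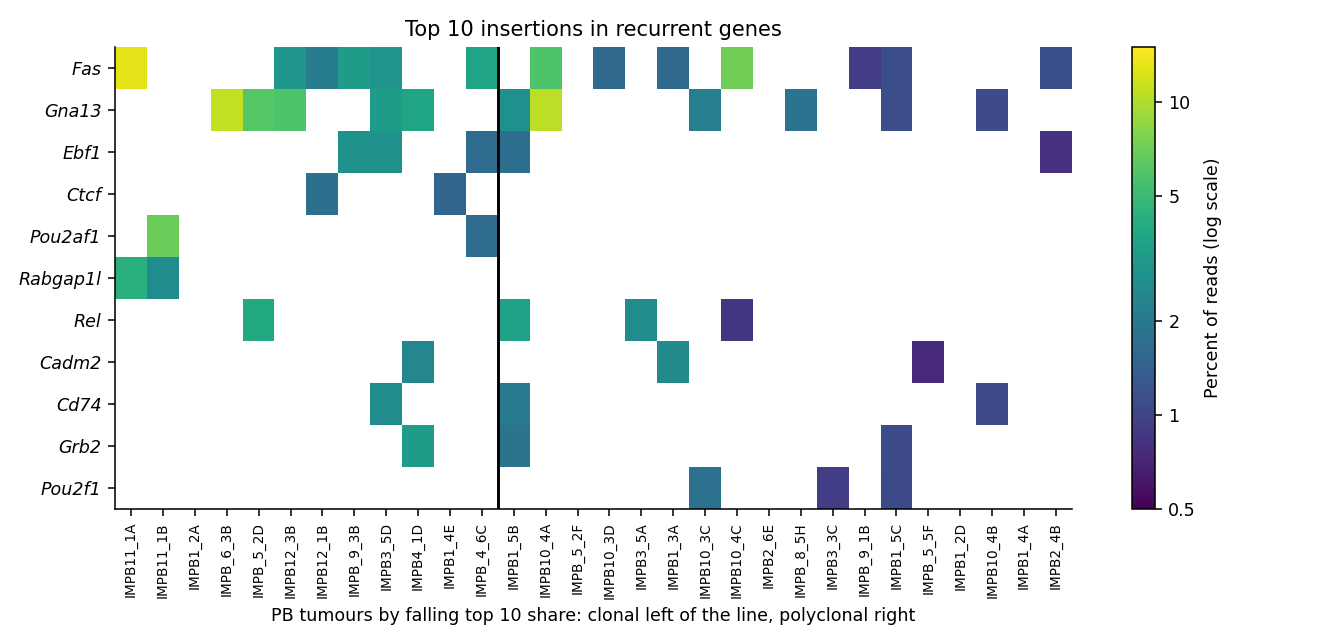
Percent of reads (colour, log scale) of the most covered top 10 insertion of recurrent genes (rows) in each PB tumour (columns, by falling top 10 share), with white where the gene had none. Fas has a cell in 6 clonal and 7 polyclonal columns and Gna13 in 5 and 6. Ctcf, Pou2af1 and Rabgap1l have cells left of the line only, although polyclonal tumours had insertions in each of them outside their top 10.

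Transcription factors of the B lineage and of nuclear factor kappa B (NF-kB) signalling followed. Ebf1, a factor that commits cells to the B lineage, had a top 10 insertion in 3 clonal tumours, at 2.86% of reads in IMPB3_5D, 2.82% in IMPB_9_3B and 1.65% in IMPB_4_6C, and in 2 polyclonal tumours, at 1.71% and 0.816%. The position in IMPB_4_6C, with 3190 reads, had 81026 reads in the deep library IMPB1_3A, where they made up 1.39% of the reads. Pou2af1, a B-cell coactivator of octamer factors, was hit in intron 1 on the sense strand in IMPB11_1B at 6.98% and in IMPB_4_6C at 1.65%. Mef2c, a factor downstream of B-cell receptor signalling, had a top 10 insertion in IMPB4_1D at 3.20%. Of the 25 B-lineage factors analysed, 3 had a top 10 insertion in a clonal tumour and 2 in a polyclonal one. Among all genes reported here 80 and 127 had one, where 17971 genes had any insertion in a PB tumour. The list was chosen with earlier results of these data known, so its counts are described only.

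Rel encodes the NF-kB subunit c-Rel and spans chr11:23736847-23770969 on the minus strand with 10 exons. Clonal IMPB_5_2D had 3.96% of its reads on an insertion in exon 10, the last exon, outside the coding sequence. Polyclonal IMPB1_5B and IMPB3_5A had their most covered insertion outside the coding part of exon 10 as well, at 3.51% and 2.60%, and IMPB10_4C had 0.851% of its reads in intron 7. All of these were sense, as were 11 of 11 Rel insertions in clonal tumours and 20 of 27 in polyclonal tumours. Traf3, an inhibitor of non-canonical NF-kB signalling, held 2 top 10 insertions in IMPB11_1B, with 6.17% and 5.34% of its reads, antisense and sense. Tnfaip3, which encodes the NF-kB inhibitor A20, held 1.94% of the reads of IMPB4_1D. Of the 21 genes of the NF-kB list, 3 had a top 10 insertion in a clonal tumour and 3 in a polyclonal tumour. Beside them stand 80 and 127 among all genes reported here, where 17971 had any insertion in a PB tumour. These counts too are described only.

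Other top insertions of the clonal tumours lay in genes of several functions. In IMPB12_1B the most covered insertion was in intron 1 of Zfp148, a zinc finger factor, at 6.75%, followed by Crebbp, a histone acetyltransferase, at 5.90%. In IMPB_9_3B it was in Hnrnpm, which encodes a splicing factor, at 5.81%. Adsl, an enzyme of purine synthesis, held 9.74% of the reads of IMPB1_2A and Itpr1, a calcium release channel, 8.57%. The most covered positions of 3 clonal tumours were outside genes. In IMPB1_4E it held 16.7% of reads and was 674.7 kb from the nearest protein-coding gene (Pabpc4l), in IMPB3_5D it held 5.02% and was 662.3 kb from Cblb, and in IMPB4_1D it held 3.89% and was 2.55 kb from Mien1. Ctcf, which encodes an insulator-binding protein, had top 10 insertions in IMPB12_1B at 1.75% and IMPB1_4E at 1.52%, both antisense. Rabgap1l had them in IMPB11_1A at 4.33% and IMPB11_1B at 2.60%, at different positions, and it is a long gene with 4399 TTAA sites.

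Some genes recurred in the top 10 over both groups. Cd74, the invariant chain of antigen presentation, held 2.58% of the reads of clonal IMPB3_5D, and polyclonal IMPB1_5B and IMPB10_4B shared a position there at 2.0% and 1.09%. Grb2, an adaptor of receptor signalling, held 3.29% of clonal IMPB4_1D, and 1.84% and 1.08% of 2 polyclonal tumours. Cadm2, a long neuronal gene with 8563 TTAA sites, held 2.42% of clonal IMPB4_1D, and 2.55% and 0.759% of 2 polyclonal tumours. Pou2f1, the octamer factor Oct-1, was in the top 10 of 0 clonal and 3 polyclonal tumours, at 1.79%, 1.08% and 0.943%. Counted whatever their reads, insertions in Cd74 numbered 2 in 2 of 12 clonal and 20 in 9 of 18 polyclonal tumours (edgeR log2 fold change -2.01, adjusted p = 0.49). For Grb2 they numbered 7 in 5 and 28 in 12 (edgeR log2 fold change -1.17, adjusted p = 0.89). Cadm2 and Pou2f1 had edgeR log2 fold changes of 0.03 and -0.02, and none of these genes was called.

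Among the 120 top 10 insertions of the clonal tumours, 96 (80%) were in genes, and 90 of these were in introns. The polyclonal tumours had 152 of 180 (84.4%) and the tails 73 of 120 (60.8%) in genes. Among the genes reported here, these top insertions fell in 80 in clonal and 127 in polyclonal tumours. Both groups shared 10 of them, which is 12.5% of the clonal and 7.87% of the polyclonal genes. Of these genes, 6 had a top 10 insertion in 2 or more clonal tumours, and they were Fas, Gna13, Ebf1, Ctcf, Pou2af1 and Rabgap1l. Any insertion in Ctcf, whatever its reads, was present in 9 of 12 clonal and 14 of 18 polyclonal tumours. For Pou2af1 it was 6 and 7, and for Rabgap1l 11 and 16. Their edgeR log2 fold changes were 0.11, 0.10 and 0.03, and none was called. Of the 120 insertions, 74 were at a position found in no other PB sample. At the other 46, 29 had fewer than 10 reads in any other sample and 7 had at least 100.

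Genes were then compared by insertions counted once per tumour and position, so that the reads, which the rule used, did not enter. The question was whether any gene was hit more often in clonal or in polyclonal tumours. Among 2828 genes with at least 10 insertions, edgeR called 0 (0%) at an adjusted p below 0.05, and 157 (5.55%) had an unadjusted p below 0.05. DESeq2 called 0 with 32 below 0.05 unadjusted, and Fisher's exact tests on presence called 0 with 65. On simulated data of these tumours, edgeR recovered 58 of 200 genes changed 4-fold with 4 false calls, and 18 of 40 among those with at least 30 insertions. Changes of this size were thus often not detectable, also in genes with at least 30 insertions. The simulation used a dispersion fixed in advance and not estimated from these data.

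The 10 genes with the smallest p are listed for their values, and none passed the adjustment. Fstl1, a secreted glycoprotein gene, had 12 insertions in 8 of 12 clonal tumours and 1 in 18 polyclonal tumours (edgeR log2 fold change 2.73, adjusted p = 0.10). Together they held at most 0.020% of the reads of any clonal tumour. Pfkfb3, a regulator of glycolysis, had 11 in 7 clonal and 2 in 2 polyclonal tumours (edgeR log2 fold change 2.25, adjusted p = 0.31). Evl, with 14 against 4, and Serinc5, with 14 against 4, also had more insertions in clonal tumours. Laptm5, a lysosomal protein that restrains antigen receptor signalling, had 1 in clonal tumours and 21 in 7 polyclonal tumours (edgeR log2 fold change -2.52, adjusted p = 0.31). Gm50595 with 15 insertions, Phc2 with 12, 4930444A19Rik with 12, Mpdz with 11 and Zfp62 with 11 in the polyclonal tumours had 0 in the clonal tumours.

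Among the 14 gene lists examined, 0 held a called gene. Their median log2 fold changes ran from -0.44 (JAK-STAT signalling, 6 genes tested) to 0.22 (T-lineage genes, 3 genes tested), against -0.061 over all genes tested. In the B-lineage list, 8 of 17 tested factors were higher and 9 lower in clonal tumours, with a median of -0.063. In the NF-kB list, 2 of 8 were higher, with a median of -0.099, and among chromatin regulators 6 of 17, with a median of -0.075. Genes of the p53 and cell cycle list and of JAK-STAT signalling held 0 top 10 insertions in either group. Of the 95 list members tested, 8 (8.42%) had an unadjusted p below 0.05, beside 5.55% over all genes tested, and their adjusted p was 0.84 or more. In the chromatin list, Kmt2c, a histone methyltransferase gene, had 12 insertions in clonal and 51 in polyclonal tumours, and Arid1a, a subunit gene of a chromatin remodelling complex, had 7 and 3. Among cytokine signalling genes, Stat3, a transcription factor, had 8 and 2, and Jak2, a kinase, had 1 and 9. The pairs within these lists thus lay in opposite directions. Nf1, a Ras inhibitor, had 23 and 72, Blnk, an adaptor of the B-cell receptor, had 2 and 12, and Bid, which promotes apoptosis, had 1 and 10. Mef2c had 89 and 94, which was relatively more in the clonal tumours (edgeR log2 fold change 0.69, adjusted p = 0.89). Blm, the helicase gene named by the study, had 1 insertion in clonal and 6 in polyclonal tumours, too few for the test.

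Where insertions lay did not differ detectably between the groups. The share in gene bodies was 63.5% ± 1.97 (SD, n = 12) in clonal and 64.2% ± 1.93 (SD, n = 18) in polyclonal tumours. Within 5 kb of a transcription start lay 24.5% ± 1.94 and 24.3% ± 1.26. On the strand of the gene were 48.4% ± 1.09 and 48.3% ± 1.51. The donor chromosome 14, which the rule left out, held 9.82% ± 3.48 and 10.5% ± 4.44 of the insertions. At a position found in another PB sample were 8.95% ± 0.899 and 8.73% ± 1.13. The tails, for which no test was made, had 61.0% ± 1.35 in gene bodies, 25.7% ± 0.837 near a start and 13.6% ± 2.22 on chromosome 14 (SD, n = 12). All 5 differences between the tumour groups were within the spread of the tumours, with two-sided permutation p between 0.36 and 0.84 and a Benjamini-Hochberg adjusted p of 0.84 for each. IMPB11_1A had the highest share on chromosome 14 among clonal tumours, at 18.4%, and IMPB4_1D the lowest, at 5.03%.

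**Figure D5:**
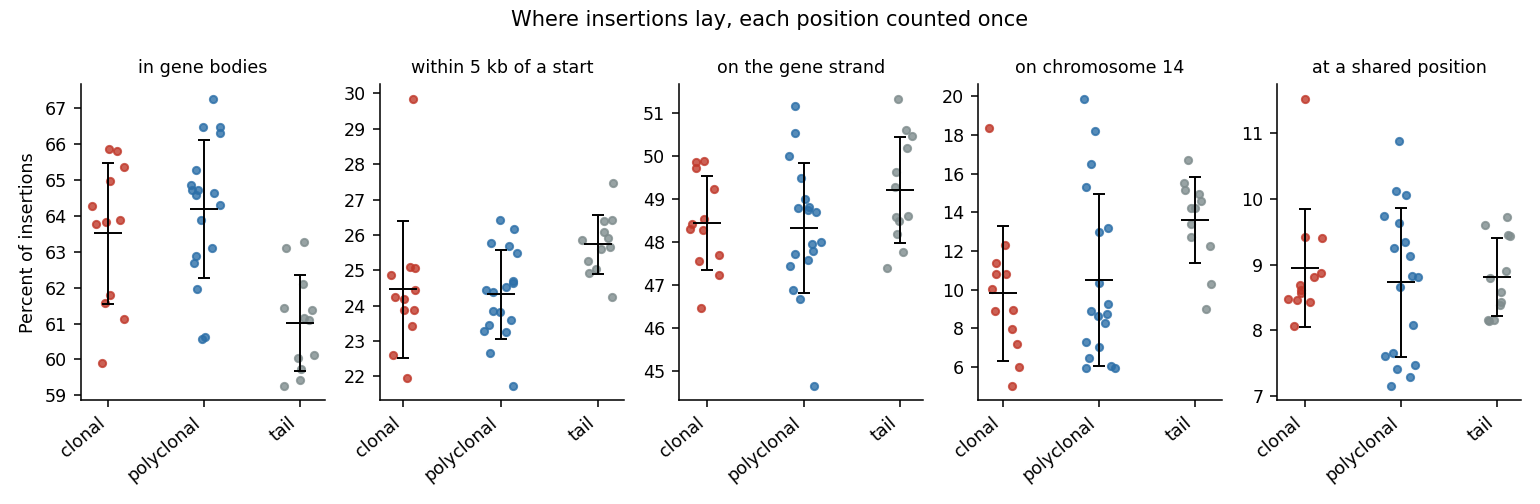
Percent of insertions of each PB sample (points) that lay in gene bodies, within 5 kb of a start, on the gene strand, on chromosome 14 or at a shared position, by group, with the mean and SD in black and vertical axes that do not start at 0. The clonal and polyclonal points overlap in all 5 panels, with means of 63.5% and 64.2% in gene bodies.

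Tissue labels were spread over both groups. Samples labelled MES MASS were 5 of 12 clonal and 4 of 18 polyclonal tumours, and those labelled MES LN were 4 and 2. Other nodes and masses were 2 and 7, and spleens were 1 and 5. No class differed detectably between groups (two-sided Fisher's exact tests, adjusted p = 0.42 for each of 4 classes), but each class held few tumours. Both MES classes made up a larger part of the clonal tumours, and spleens and other nodes and masses a smaller part. Sample names were written with the number joined to IMPB in 8 clonal and 14 polyclonal tumours and separated from it in 4 and 4.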

How the data were processed

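The authors deposited raw read counts per transposon insertion, 385883 lines over 64 samples, on mm10 per the labels. The aligner, insertion caller and read filters are not given in the sources used here. The table also holds 1 column of coverage after scaling, which did not enter here. No deposited PB line had fewer than 2 reads. Read shares, numbers of positions and top insertions used positions as deposited, so that a pair of Slamf6 positions in IMPB10_4A a few bases apart counted separately. For insertions per gene, genes hit and landing measures, positions were moved to the nearest TTAA within 5 bp and counted once per tumour. Genes were RefSeq gene bodies of GRCm38. Autosomes without chromosome 14 were used. Clonal and polyclonal tumours were compared with edgeR quasi-likelihood tests, with the kept insertions as library size, and with two-sided permutation tests (100000 resamples, or exact where a group had under 10). edgeR was tested on simulated data. P-values measure the spread between tumours. Named genes were those of the most covered insertion of a clonal tumour (or the nearest gene), those with a top 10 insertion in at least 2 clonal or 3 PB tumours, the 10 smallest edgeR p, list members with a top 10 insertion in a clonal tumour, and Blm. Adsl, Itpr1, Pikfyve and the list members named for an unadjusted p were named after their values were seen. The members and lists were chosen with earlier results of these data known. A gene that the rule selects is not reported here. Python 3.11.15, numpy 2.4.6, pandas 2.3.3, scipy 1.17.1, matplotlib 3.10.9, R 4.3.3, edgeR 4.0.16 and DESeq2 1.42.0 were used.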

Additional observations from a re-analysis of the deposited data

How the results depend on the processing

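The division of the tumours depended on the rule: the 10 most covered positions gave 12 clonal tumours, as they did with chromosome 14 kept or with positions merged at their TTAA, while the top 5 gave 4 and the top 20 gave 19. The gene comparison called 0 genes under most alternatives and 1 under 4 of them: Serinc5 at a threshold of 30%, Pikfyve with the log2 share as a covariate, and Fstl1 without IMPB12_1B or without IMPB_5_2D. Leaving out each clonal tumour in turn thus gave between 0 and 1 calls.

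No landing measure had an adjusted p below 0.05 under any of 85 alternative fits (lowest 0.53), but 16 of the differences between clonal and polyclonal tumours changed sign. In percentage points, with joined names only the difference was 0.39 in gene bodies, -0.38 on the gene strand and 0.74 on chromosome 14. At a threshold of 20% it was -0.41 near start sites, -0.26 on the gene strand and 0.18 on chromosome 14. At 30% it was -0.36 near start sites, 0.44 on chromosome 14 and -0.14 at shared positions. With at least 10 reads it was -0.14 near start sites and -0.036 at shared positions. Without each clonal tumour in turn, it ranged from -0.88 to -0.34 in gene bodies (-0.34 without IMPB_5_2D), from -1.46 to -0.24 on chromosome 14 (-1.46 without IMPB11_1A, -0.24 without IMPB4_1D), from -0.36 to 0.36 near start sites, from -0.027 to 0.28 on the gene strand and from -0.019 to 0.29 at shared positions. It turned without IMPB4_1D near start sites and at shared positions, and without IMPB_4_6C, IMPB_6_3B or IMPB_9_3B on the gene strand. The cause was not tested. The tissue results kept their direction at 20% and 30%.

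As chosen after seeing the data, insertions of at least 1% of reads in place of the top 10 put Fas in 9 clonal and 9 polyclonal tumours and Gna13 in 5 and 7. This cut uses the reads that the rule used. Clonal tumours had a median of 18 such positions and polyclonal tumours 6.5, so these counts are described only. Without IMPB1_3A the top 10 counts were 6 and 6 for Fas and 5 and 6 for Gna13, and without IMPB11_1A they were 5 and 7 and 5 and 6. No paired analysis was possible because the replicate numbers only name samples in accession order and both groups come from the same set of tumours. The first number in the sample names, whose meaning the labels do not give, was also tried as a block in edgeR after seeing the data. It took 11 values, of which 4 held both clonal and polyclonal tumours (15 tumours), and the fit called 0 genes, with 131 at an unadjusted p below 0.05.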
